A study of Homo sapiens with 6 samples.

Results

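A set of 8 transcription factors of the lung and gut endoderm lineages, NKX2-1, FOXA1, FOXA2, FOXA3, GATA6, HNF4A, CEBPA and KLF5, was followed in the counts of A549 cells after knockdown of BAP18. They were taken by symbol from the count table, and 8 of the 35474 genes listed matched. A549 is an established human lung adenocarcinoma line of epithelial origin. BAP18, listed under its gene symbol C17orf49, is a chromatin-associated protein. The siBAP18 group was transfected with an siRNA against BAP18 and the siCtrl group with a non-specific siRNA. Each group held 3 biological replicates, and RNA was taken 48 h after transfection. All 6 cultures were one cell line with no other treatment given in the labels, and the sources used here do not state which of the study's siRNAs was transfected for sequencing. The p-values therefore describe the spread between these cultures and not between cell lines or siRNAs.

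Lineage transcription factors bind DNA and set which genes an epithelial cell uses. FOXA1, FOXA2 and FOXA3 are forkhead proteins that can bind sites in closed chromatin, GATA6 is a zinc finger factor of early endoderm, and HNF4A is a nuclear receptor of liver, kidney and gut epithelium. NKX2-1 is the homeobox factor of lung and thyroid that activates surfactant genes, CEBPA is a leucine zipper factor of hepatocytes, alveolar cells and myeloid cells, and KLF5 is a zinc finger factor of proliferating epithelium.

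Of the 8 factors, 7 passed the filter on low counts and were tested among 20776 genes with the quasi-likelihood test of edgeR (p adjusted by Benjamini-Hochberg). KLF5, HNF4A, FOXA1 and CEBPA were lower in siBAP18 at an adjusted p under 0.05, and GATA6 was higher. FOXA2 and FOXA3 did not pass, and NKX2-1 was too low to test. Across all genes tested, 49.6% passed the same threshold, 25.1% lower and 24.5% higher, so a count of 5 in 7 is read against a background of about 1 gene in 2. With the further condition of an absolute log2 fold change over 1, KLF5 and GATA6 were called, where 8.46% of all genes were. The groups did not overlap in CPM (counts scaled to library size with TMM factors) for 6 of the 7 factors tested, against 56.6% of all genes. The median log2 fold change was −0.31 over the 7 factors and 0.0010 over all genes tested.

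**Figure D1:**
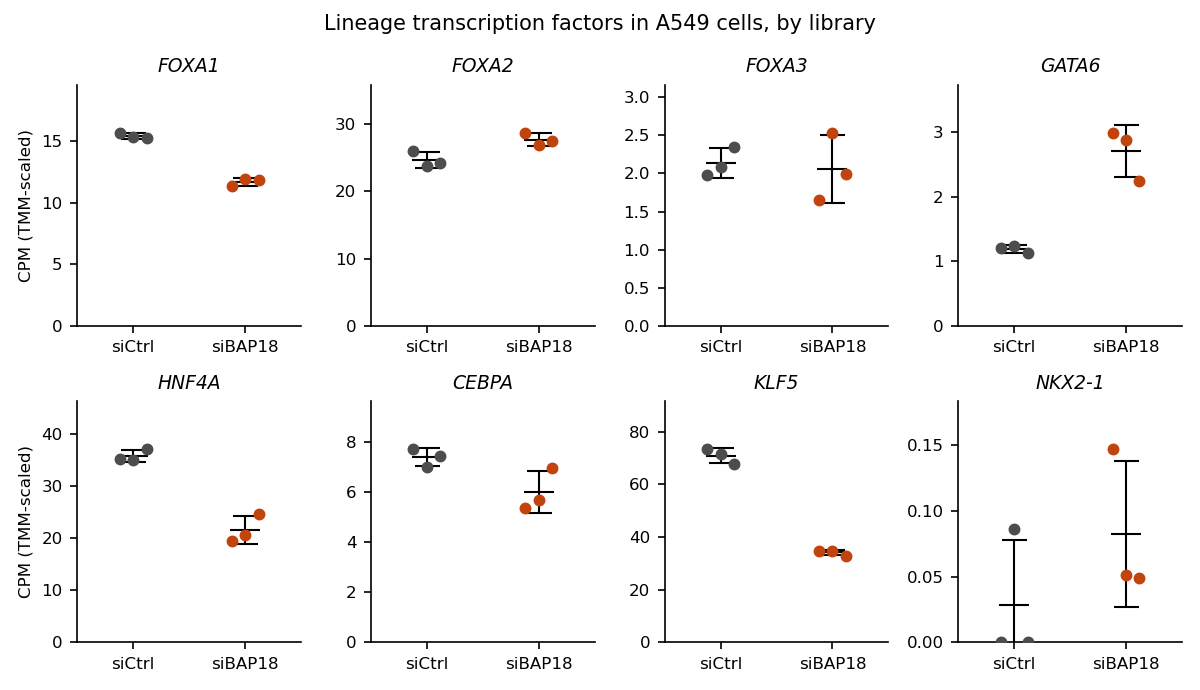
CPM (TMM-scaled) of each of the 8 factors on the vertical axis, from 0, with 1 point per library and the mean and SD of the 3 siCtrl and 3 siBAP18 libraries as bars. KLF5, HNF4A, FOXA1 and CEBPA sit lower in every siBAP18 library, GATA6 and FOXA2 sit higher, and FOXA3 and NKX2-1 overlap.

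The knockdown was seen in the targeted gene. C17orf49 had 743, 751 and 705 counts in siCtrl and 120, 137 and 108 in siBAP18, a difference of −2.65 on the log2 scale, with an error of 0.111 (SE, adjusted p = 7.31e-16). Library totals ran from 42094524 to 56548620 counts, and the mitochondrial share was 6.86% to 7.43% in siCtrl and 5.27% to 6.14% in siBAP18. The 7 epithelial markers were all tested and summed to 21153 to 22980.8 CPM in siCtrl and 16895 to 21071.3 CPM in siBAP18. KRT8 alone had means of 13436 and 10433 CPM in siCtrl and siBAP18. CDKN2A and CDKN2B, which are deleted in A549, stayed at or below 0.235 CPM together. Summed CPM in siCtrl and siBAP18 was 0.898 to 1.31 and 0.827 to 1.21 for the 3 blood markers listed, with HBB at or under 3 counts in every library. It was 0.984 to 1.15 and 0.890 to 1.13 for the 4 endothelial markers, and 12.5 to 13.5 and 9.64 to 10.8 for the 5 fibroblast markers listed, of which COL1A1 (log2 fold change −0.38, adjusted p = 0.00124) gave 12.0 and 9.17. PECAM1 was lower in siBAP18 (−1.53, adjusted p = 0.00123) and CDH5 higher (1.10, adjusted p = 0.0148). The part of these markers in the results was not tested. In bulk RNA, fewer cells expressing a gene and less RNA of it per cell cannot be told apart.

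The start regions of KLF5, HNF4A and GATA6 are shown because these 3 factors had the smallest adjusted p-values of the 8. The sequences are RefSeq promoter windows of GRCh38.p14, all on the plus strand, each with 250 bases before the start site and 50 after it. Capitals mark the matches on either strand. The motif searched for GATA factors was AGATAA. For KLF factors it was CCACCC, and for NKX2-1 it was CAAGTG.
HNF4A, first start, chr20:44355449-44355748: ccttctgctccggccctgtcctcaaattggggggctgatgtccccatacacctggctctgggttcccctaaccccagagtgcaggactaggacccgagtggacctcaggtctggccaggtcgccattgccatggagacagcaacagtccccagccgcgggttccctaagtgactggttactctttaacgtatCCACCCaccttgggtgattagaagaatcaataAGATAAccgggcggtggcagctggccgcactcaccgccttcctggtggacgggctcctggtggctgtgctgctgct
HNF4A, second start, chr20:44400989-44401288: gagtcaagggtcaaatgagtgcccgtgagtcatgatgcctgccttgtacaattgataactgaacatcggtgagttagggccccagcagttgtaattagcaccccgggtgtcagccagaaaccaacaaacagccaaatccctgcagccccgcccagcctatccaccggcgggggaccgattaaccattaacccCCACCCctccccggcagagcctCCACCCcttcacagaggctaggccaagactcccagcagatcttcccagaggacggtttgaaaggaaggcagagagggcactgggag
GATA6, chr18:22169339-22169638: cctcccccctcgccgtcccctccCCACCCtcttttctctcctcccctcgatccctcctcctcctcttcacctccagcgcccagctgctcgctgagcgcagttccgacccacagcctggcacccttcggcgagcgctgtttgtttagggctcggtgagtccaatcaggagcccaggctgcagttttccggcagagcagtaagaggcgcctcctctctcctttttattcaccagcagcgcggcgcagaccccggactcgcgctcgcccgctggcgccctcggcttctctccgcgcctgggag
KLF5, second start, chr13:73058755-73059054: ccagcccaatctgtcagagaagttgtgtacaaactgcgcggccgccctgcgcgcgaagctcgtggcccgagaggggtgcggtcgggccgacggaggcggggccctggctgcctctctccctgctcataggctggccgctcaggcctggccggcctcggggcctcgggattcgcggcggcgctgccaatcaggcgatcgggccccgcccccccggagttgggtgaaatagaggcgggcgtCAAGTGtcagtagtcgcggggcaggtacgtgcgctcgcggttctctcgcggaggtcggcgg

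Counted with the start site as position 0, the first HNF4A window held CCACCC at −58 and AGATAA at −26, and the second held CCACCC at −58 and −36. The GATA6 window held CCACCC at −227, and the second KLF5 window held CAAGTG at −11. The first KLF5 window, at chr13:73054726-73055025, held none of the motifs searched. In all, 10 windows of 7 factors matched by symbol (FOXA2 is missing from the table), and CCACCC was in 6 of the 10, where it was in 34.3% of the 35116 RefSeq windows. The windows with CCACCC belonged to 4 factors. AGATAA was in 2 (10.3% of all windows), CAAGTG in 3 (11.5%), the FOXA motif TGTTTAC in 1 (3.42%) and the TCF/LEF motif CTTTGA in 1 (12.9%). The FOXA and TCF/LEF matches both lay in the first window of NKX2-1, which also held AGATAA and CAAGTG. The CEBP motif TTGCNNAA (10.5%) and the HNF4 motif CAAAGTNCA (1.10%) were in none of the 10. These are matches of letters and not measured binding.

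KLF5 (13:73054976-73077542, plus strand; GRCh38 coordinates here and below, each the whole span of the gene's exons and introns) was the most abundant of the 8 factors in siCtrl per length and showed the smallest adjusted p. Its counts were 3902, 3336 and 3166 in siCtrl and 1894, 2025 and 1338 in siBAP18. Scaled to library size this was 73.4, 71.7 and 67.7 CPM in siCtrl and 34.8, 34.7 and 33.0 CPM in siBAP18. All siBAP18 libraries lay far below all siCtrl libraries. The mean fell from 70.9 ± 2.90 CPM to 34.2 ± 1.00 CPM (SD of 3 libraries). On the log2 scale the difference was −1.05 ± 0.0682 (SE, 95% interval −1.19 to −0.91, adjusted p = 3.12e-12), or 0.482-fold. The size of this change was at the 92.1 percentile of all genes tested. Leaving out each library in turn gave log2 fold changes of −1.09 to −1.03.

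HNF4A (20:44355700-44434596, plus strand) had 1873, 1630 and 1733 counts in siCtrl and 1057, 1207 and 1001 in siBAP18. In CPM the libraries stood at 35.2, 35.0 and 37.1 against 19.4, 20.7 and 24.7. The siCtrl libraries were close together, and siBAP18 replicate 3 was the highest of its group without reaching them. HNF4A fell from 35.8 ± 1.12 to 21.6 ± 2.75 CPM (SD of 3 libraries). On the log2 scale the difference was −0.73 ± 0.0814 (SE, 95% interval −0.90 to −0.56, adjusted p = 4.18e-08). Without single libraries the value ran from −0.83 to −0.66, the first of these without siBAP18 replicate 3. Counts were given per gene, so transcripts from the separate HNF4A start sites printed above were not resolved.

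RP5-881L22.5, a noncoding gene listed beside the 5′ end of HNF4A on the opposite strand, had 47, 56 and 55 counts in siCtrl and 8, 16 and 10 in siBAP18. These groups were well apart, and the log2 fold change was −2.28 ± 0.341 (SE, adjusted p = 4.19e-06). R3HDML, the other neighbour within 5 kb that was tested, fell by 1.56 on the log2 scale (SE 0.438, adjusted p = 0.00440) from only 16 to 25 counts per siCtrl library. HNF4A-AS1 had 4, 0 and 1 counts in siCtrl and 0 in each siBAP18 library and was not tested, and RP5-881L22.6, MIR3646 and LINC01620 had at most 10 counts in any library.

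FOXA1 and CEBPA fell by less. FOXA1 (14:37589984-37596059, minus strand) had 834, 715 and 712 counts in siCtrl and 618, 695 and 479 in siBAP18. This was 15.7, 15.4 and 15.2 CPM against 11.4, 11.9 and 11.8 CPM. The libraries of each group differed little from each other and the groups were apart. The mean fell from 15.4 ± 0.230 to 11.7 ± 0.292 CPM (SD of 3 libraries). On the log2 scale the difference was −0.40 ± 0.0812 (SE, 95% interval −0.57 to −0.23, adjusted p = 2.00e-04). The change was near the middle of all genes in size, at the 58.3 percentile. TTC6, its neighbour, which shares 16 exon bases with FOXA1, was at −0.043 ± 0.237 (SE, adjusted p = 0.897).

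CEBPA (19:33299934-33302564, minus strand) had 410, 326 and 348 counts in siCtrl and 293, 332 and 282 in siBAP18, or 7.71, 7.01 and 7.44 CPM against 5.38, 5.68 and 6.96 CPM. The highest siBAP18 library, replicate 3, came within a small distance of the lowest siCtrl library. CEBPA fell from 7.39 ± 0.353 to 6.01 ± 0.835 CPM (SD of 3 libraries). On the log2 scale the difference was −0.31 ± 0.112 (SE, 95% interval −0.54 to −0.075, adjusted p = 0.0256). The call was lost without any 1 of 4 libraries. The adjusted p was 0.0956 without siCtrl replicate 1, 0.0657 without siCtrl replicate 3, 0.143 without siBAP18 replicate 1 and 0.0644 without siBAP18 replicate 2, with the fold change between −0.41 and −0.23 over the 6 omissions.

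The CEBPA gene is a single exon with antisense transcripts over it. CTD-2540B15.11, whose 659 exon bases all lie inside that exon, was at −0.38 on the log2 scale (adjusted p = 0.118). CTD-2540B15.7, whose 482 exon bases also all lie inside it, was at −0.31 (adjusted p = 0.125). Neither has an exon base of its own. CEBPA-AS1 rose by 0.49 ± 0.118 (SE, adjusted p = 0.00128) on the log2 scale, and CTD-2540B15.9, with 5 to 22 counts per library, by 1.76 ± 0.460 (SE, adjusted p = 0.00244). Whether strand was used in counting is not given in the sources used here. If it was not, reads from the bases that a gene shares with an antisense gene cannot be assigned to either of them.

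GATA6 (18:22169443-22202528, plus strand) was the factor that rose. It had 64, 58 and 53 counts in siCtrl and 163, 168 and 91 in siBAP18, or 1.20, 1.25 and 1.13 CPM against 3.00, 2.88 and 2.24 CPM. The siCtrl libraries were close together, and siBAP18 replicate 3, the lowest of its group, still lay well above them. The mean rose from 1.19 ± 0.0571 to 2.71 ± 0.403 CPM (SD of 3 libraries). On the log2 scale the difference was 1.19 ± 0.182 (SE, 95% interval 0.81 to 1.56, adjusted p = 5.92e-06), or 2.28-fold. Single omissions gave 1.11 to 1.30, and the size of the change was at the 94.3 percentile of all genes.

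GATA6 stayed a low gene in both groups, at the 31.6 percentile of average log2 CPM. RP11-627G18.1, an antisense gene that shares 321 exon bases with GATA6, moved in the same direction, from 37, 32 and 27 counts to 83, 88 and 40, and rose by 1.05 ± 0.252 on the log2 scale (SE, adjusted p = 0.00119). GATA6-AS1, which shares no exon base with it, had 6, 8 and 5 counts in siCtrl and 9, 27 and 16 in siBAP18 and was not tested. RP11-627G18.2, also nearby, had 2 counts in each of 2 siBAP18 libraries and 0 in siCtrl.

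FOXA2 (20:22581005-22585455, minus strand) had 1380, 1104 and 1133 counts in siCtrl and 1563, 1571 and 1112 in siBAP18. In CPM it stood at 25.9, 23.7 and 24.2 against 28.7, 26.9 and 27.4. Every siBAP18 library was above every siCtrl library, by a small step. The log2 fold change was 0.17 ± 0.0723 (SE, 95% interval 0.018 to 0.32), and the adjusted p of 0.0575 did not pass. The call turned on settings, with adjusted p-values from 0.0301 to 0.223 over the alternatives, under 0.05 in 2 of 6 single omissions and 7 of 11 other settings. LINC01384 had at most 4 counts in any library, and LINC00261, a noncoding gene next to FOXA2 on the same strand, fell by 0.66 on the log2 scale (SE 0.190, adjusted p = 0.00543).

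FOXA3 (19:45863989-45873797, plus strand), the third of the forkhead factors, had 105, 97 and 110 counts in siCtrl and 90, 148 and 81 in siBAP18, or 1.97, 2.09 and 2.35 CPM against 1.65, 2.53 and 2.00 CPM. The siBAP18 libraries spanned the siCtrl range on both sides. The log2 fold change was −0.045 ± 0.181 (SE, 95% interval −0.42 to 0.33, adjusted p = 0.858). Its neighbour SYMPK was at 0.026 (SE 0.0703, adjusted p = 0.789). The FOXA3 interval spans both signs, and the sign changed with the library left out, from −0.23 to 0.099.

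NKX2-1 (14:36516392-36521149, minus strand) was at or near the limit of detection. It had 0, 4 and 0 counts in siCtrl and 8, 3 and 2 in siBAP18, in sum 4 and 13 counts over the 3 libraries. A count of 0 allows up to 3 counts, or 0.0564 CPM in siCtrl replicate 1 and 0.0642 CPM in siCtrl replicate 3. This limit covers counting error only. Values above 3 counts were found in 2 of the 6 libraries, 1 in each group, and the groups overlapped. No fold change was fitted in the main test. Alternative fits without a filter included NKX2-1, and their values for it are not given. Its antisense neighbour NKX2-1-AS1 had 3 counts in siBAP18 replicate 1 and 0 elsewhere, and RP11-896J10.3 had 2 there and 0 elsewhere.

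Products of alveolar and airway cells, several of them known NKX2-1 targets, were measured next. Of 24 surfactant, alveolar and airway genes, 19 were listed and 9 passed the filter on low counts. Surfactant genes SFTPB and SFTPC, and the club cell gene SCGB1A1, were at or below 0.0400 CPM in the mean of each group, while SFTPD fell by 0.43 on the log2 scale (SE 0.138, adjusted p = 0.0109) from 4.13 CPM. Of the 9 tested genes 3 fell, 3 rose and 3 did not pass, with a median of −0.26 and 66.7% past the threshold, against 49.6% of all genes. CEACAM6, an adhesion protein of the alveolar and airway surface, fell (533 to 262 CPM, log2 fold change −1.02, adjusted p = 3.66e-12). LPCAT1, an enzyme of surfactant lipid synthesis, rose by 0.55 (adjusted p = 2.81e-07), the alveolar receptor AGER by 0.56 (adjusted p = 0.00155) and the lamellar body lipid transporter ABCA3 by 0.27 (adjusted p = 0.00282), all on the log2 scale. SFTPB, SFTPC, SCGB1A1 and SFTPD were named as known markers of lung cells after their values were seen.

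**Figure D2:**
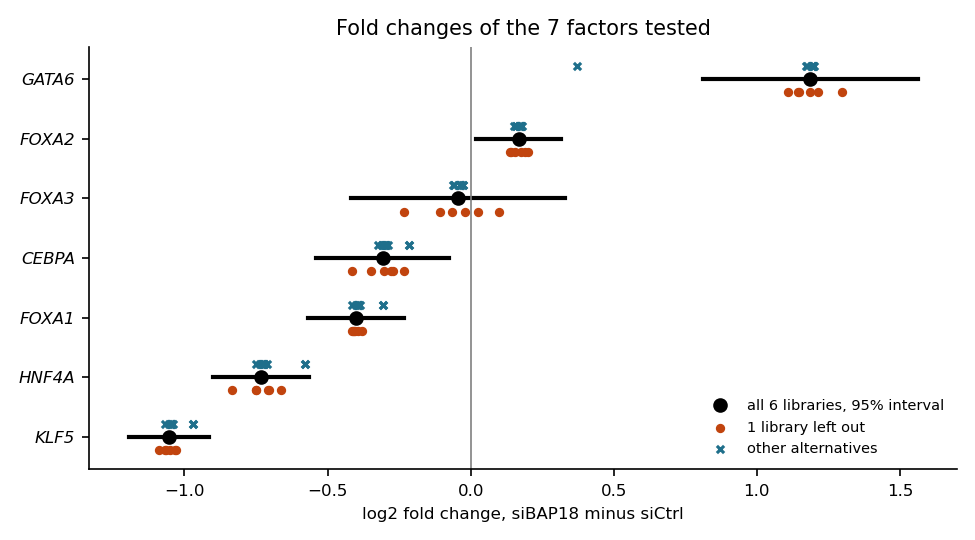
Log2 fold change of siBAP18 against siCtrl (horizontal axis) for the 7 factors tested, with the 95% interval from all 6 libraries as a line, the values with 1 library left out in orange and those of other alternatives in blue. KLF5, HNF4A, FOXA1 and CEBPA stay below 0 and GATA6 and FOXA2 above it throughout, FOXA3 falls on both sides, and GATA6 drops to 0.37 on the log2(RPKM + 1) scale.

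Levels of different genes were compared as RPKM, the deposited values scaled to exon length and library total. In siCtrl the mean level in RPKM was 18.2 for KLF5, 9.44 for FOXA2, 4.88 for HNF4A, 3.87 for FOXA1, 2.80 for CEBPA, 0.973 for FOXA3, 0.302 for GATA6 and 0.00915 for NKX2-1. No neighbours in this order overlapped over the 3 libraries. In siBAP18 FOXA2 came first, at 10.1 to 11.1 RPKM, and KLF5 second, at 8.16 to 9.20 RPKM. The ratio of KLF5 to FOXA2 RPKM was 1.89, 2.02 and 1.87 in siCtrl and 0.810, 0.862 and 0.805 in siBAP18, so that their order turned in every library. This pair was chosen after its values were seen and has no test. HNF4A and FOXA1 overlapped in siBAP18, at 2.68 to 3.25 and 2.86 to 3.09 RPKM. FOXA3 and GATA6 also overlapped there, at 0.760 to 1.19 and 0.548 to 0.765 RPKM, and GATA6 was just above FOXA3 in siBAP18 replicate 1.

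Within the FOXA family FOXA1 held a smaller share in siBAP18, while the summed level of the family overlapped between the groups. FOXA1 made up 26.6%, 27.7% and 26.9% of the FOXA RPKM in siCtrl and 19.5%, 20.6% and 20.6% in siBAP18. The groups were apart, with means of 27.1% ± 0.575 and 20.2% ± 0.654 (SD, n = 3 each), and the two-sided exact permutation p of 0.1 is the smallest that 3 against 3 libraries can give. The mean share of FOXA2 was 66.1% in siCtrl and 73.3% in siBAP18, and that of FOXA3 was 6.82% and 6.49%. The summed RPKM of the family was 14.3 ± 0.340 in siCtrl and 14.5 ± 0.569 in siBAP18 (SD, n = 3 each), with overlapping libraries.

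CEBPA also held a smaller share of the CEBP genes summed here in siBAP18, where their sum was larger. CEBPA made up 8.13%, 7.63% and 8.20% of the summed RPKM of CEBPA, CEBPB, CEBPD, CEBPE and CEBPG in siCtrl and 3.81%, 4.20% and 4.96% in siBAP18. The means were 7.99% ± 0.310 and 4.32% ± 0.588 (SD, n = 3 each) and the groups did not overlap, with the exact permutation p again at its smallest value of 0.1. The summed RPKM was 35.1 ± 0.760 in siCtrl and 52.9 ± 1.45 in siBAP18 (SD, n = 3 each). CEBPB, which is induced in acute-phase and stress responses, rose by 0.73 on the log2 scale (SE 0.0704, adjusted p = 3.79e-09), CEBPD by 0.69 (SE 0.0860, adjusted p = 3.00e-07) and CEBPG by 0.44 (SE 0.0796, adjusted p = 5.47e-05). CEBPE was at or under 3 counts in every library. DDIT3, a further C/EBP family protein, was not in this sum. Its mean RPKM was 8.90 in siCtrl and 137 in siBAP18, so the shares hold only for the genes summed.

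**Figure D3:**
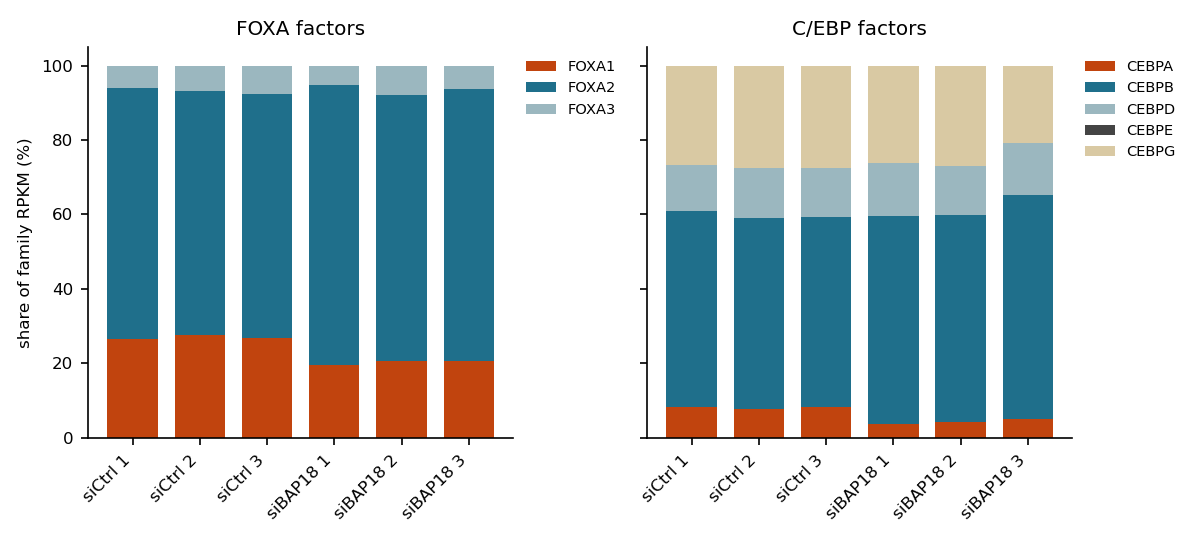
Stacked bars of the share of family RPKM (vertical axis, 0 to 100%) in each of the 6 libraries, for the FOXA factors on the left and the C/EBP factors on the right. FOXA1 takes 26.6% to 27.7% of the FOXA sum in siCtrl and 19.5% to 20.6% in siBAP18, and CEBPA takes 7.63% to 8.20% and 3.81% to 4.96% of the C/EBP sum. DDIT3 is not in the C/EBP sum.

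GATA6 was not alone among its paralogs, a comparison also chosen after the values were seen. In mean RPKM GATA3, a factor of several epithelia and of T cells, was at 0.531 in siCtrl and 1.96 in siBAP18, GATA5 at 0.147 and 0.343, GATA4 at 0.429 and 0.536 and GATA2 at 0.659 and 0.549. GATA3 rose by 1.89 on the log2 scale (SE 0.149, adjusted p = 1.07e-10) and GATA5 by 1.21 (SE 0.342, adjusted p = 0.00483), while GATA4 (0.31, adjusted p = 0.133) and GATA2 (−0.27, adjusted p = 0.162) did not pass. The summed GATA RPKM was 2.07 ± 0.0326 in siCtrl and 4.08 ± 0.290 in siBAP18 (SD, n = 3 each). GATA6 held 14.8%, 15.5% and 13.6% of it in siCtrl and 17.3%, 19.3% and 13.9% in siBAP18, shares that overlapped.

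Family members and cofactors of GATA6, HNF4A and CEBPA numbered 21, of which 18 were tested, 3 fell, 8 rose and 7 did not pass. The list held no relatives of NKX2-1, KLF5 or the FOXA factors. The median log2 fold change was 0.37 and 61.1% passed, against 49.6% of all genes tested (24.5% higher and 25.1% lower). DDIT3, the C/EBP family protein of the unfolded protein response, rose (11.3 to 173 CPM, log2 fold change 3.94, adjusted p = 6.54e-22). TRIB1, a pseudokinase that directs C/EBP proteins to degradation, rose by 1.00 (adjusted p = 5.60e-11), and ZFPM1, a GATA cofactor, by 0.88 (adjusted p = 8.87e-06). HNF4G, the paralog of HNF4A, fell by 1.22 on the log2 scale (SE 0.194, adjusted p = 9.38e-06), from 2.28 to 0.969 CPM. The coactivator PPARGC1A fell by 0.72 (adjusted p = 3.16e-07). ZFPM1, HNF4G, PPARGC1A, CEBPD, CEBPG and GATA5 were named for their relation to GATA6, HNF4A or CEBPA after their values were seen.

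Among 30 other lineage factors, 24 were tested, 10 fell, 5 rose and 9 did not pass, with a median log2 fold change of −0.070 and 62.5% past the threshold, against 49.6% of all genes. NR5A2, a nuclear receptor of liver, pancreas and gut, fell by 1.51 (adjusted p = 6.18e-11). TP63, of basal epithelial cells, fell by 0.82 (adjusted p = 2.53e-08) and SPDEF, of goblet cells, by 0.80 (adjusted p = 3.39e-07), all on the log2 scale. Among those that rose, PROX1, a homeobox factor of liver and lymphatic endothelium, was higher by 1.53 (SE 0.339, adjusted p = 5.28e-04) from a mean of 0.266 CPM, EOMES by 0.71 (adjusted p = 0.0106), FOXP4 by 0.52 (adjusted p = 3.01e-05), TBX3 by 0.41 (adjusted p = 8.14e-04) and FOXP1 by 0.34 (adjusted p = 0.00250). These 5 were named after their values were seen.

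Proteins of the liver type, most of them secreted and many known targets of HNF4A, FOXA and C/EBP factors in hepatocytes, were measured in the same libraries. Of 40 such genes 35 were listed and 25 tested, and 11 fell, 2 rose and 12 did not pass, with a median of −0.26. In either direction 52% passed the threshold, near the 49.6% of all genes. By direction, 25.1% of all genes tested were lower and 24.5% higher, so the fallers and risers of this list were less even. The fibrinogen chains FGG and FGB fell by 0.85 (adjusted p = 9.55e-11) and 0.66 (adjusted p = 8.55e-09) on the log2 scale. The protease inhibitor SERPINA3 fell by 2.46 (adjusted p = 2.09e-08) from 2.37 CPM, and the apolipoprotein APOC1 by 0.98 (adjusted p = 4.67e-08). ALB and TTR, both defining liver products, were at or below 0.415 CPM in the mean of each group and did not pass, and were also named after their values were seen.

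Gastric and intestinal products had 10 of 20 genes tested, of which 6 fell, 0 rose and 4 did not pass, with a median of −0.42 and 60% past the threshold. Over all genes tested, 49.6% passed and 25.1% were lower. MUC5AC, AGR2 and MUC5B of this list are also made by airway cells, and none of them was in the lung list. MUC5B, 1 of the 6 that fell, had means of 820 CPM in siCtrl and 577 CPM in siBAP18 (log2 fold change −0.51, adjusted p = 2.34e-05). This mucin was named after its values were seen. The secreted mucin MUC5AC fell from 727 to 328 CPM (log2 fold change −1.15, adjusted p = 2.00e-10). CDH17, a cadherin of intestinal epithelium, fell by 0.85 (adjusted p = 7.86e-08), AGR2, which helps fold mucins in the endoplasmic reticulum, by 0.59 (adjusted p = 2.23e-07) and the membrane mucin MUC13 by 0.42 (adjusted p = 9.98e-06). Of the epithelial markers themselves 4 of 7 fell and 1 rose, with CDH1 at −1.32 (adjusted p = 3.81e-14), EPCAM at −0.41 (adjusted p = 3.78e-05) and KRT8 at −0.37 (adjusted p = 3.36e-04) in log2 fold change and KRT7 at 0.43 (adjusted p = 5.95e-05). Their part in the values of the 8 factors was not tested.

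**Figure D4:**
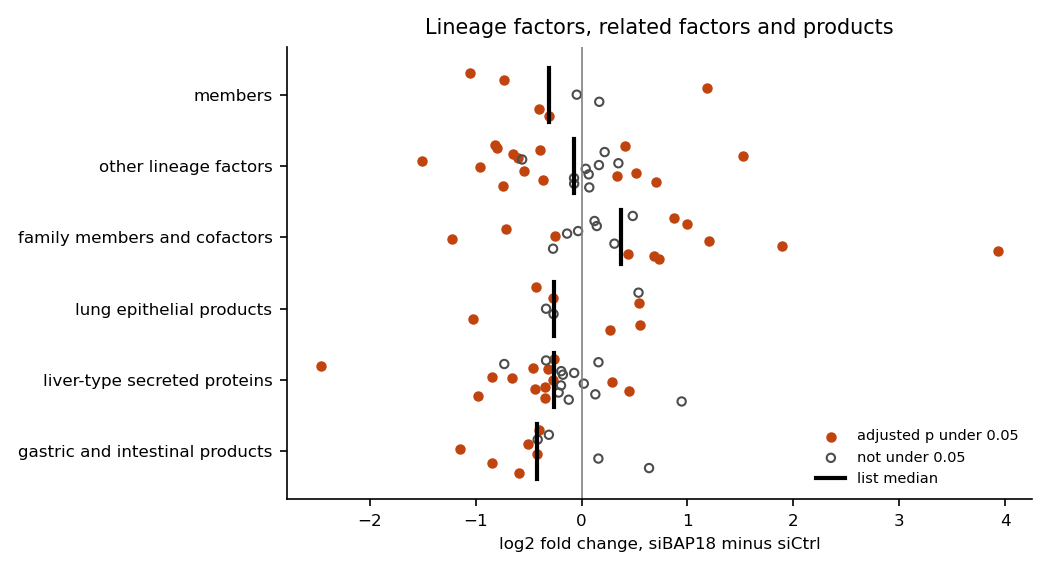
Log2 fold change of siBAP18 against siCtrl (horizontal axis) for each tested gene of the 8 factors and 5 gene lists, filled where the adjusted p is under 0.05 and open otherwise, with the list median as a bar. The medians run from −0.42 for gastric and intestinal products to 0.37 for family members and cofactors, and DDIT3, at 3.94, lies farthest from 0.

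The genes whose log2 CPM followed KLF5 most closely over the 6 libraries, of 14222 genes compared, were CD24, STARD4 and ERI1, with Pearson r of 0.9997, 0.9996 and 0.9996. Those closest to HNF4A were MYO1A, SCNN1A and PPIL2, with r of 0.9988, 0.9987 and 0.9978. All 6 genes were lower in siBAP18, with log2 fold changes of −1.25, −1.15, −0.78, −1.63, −1.18 and −0.41 in the same order. Such values are a description, since the 6 libraries fall into 2 groups and any gene that separates them correlates with any other.

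The study lists 3 siRNAs against BAP18, and their short guide words, the complement of guide bases 2 to 8, were looked for in the 3′ UTRs of the 8 factors. The word of siBAP18#2 was in FOXA1 and NKX2-1, and those of siBAP18#1 and siBAP18#3 in none of the 8. Among 13742 tested genes with an annotated 3′ UTR, 15.5%, 12.5% and 7.79% held the words of siBAP18#1, siBAP18#2 and siBAP18#3. The part of these words in the FOXA1 value was not tested.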

How the data were processed

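Poly(A) RNA of 3 siCtrl and 3 siBAP18 cultures was made into strand-specific libraries and sequenced as paired ends, per the labels. The authors deposited whole-number counts per gene and RPKM values, which equal the count divided by the listed exon length and the column total. The aligner, counter and use of strand are not given in the sources used here, and the submitters' notes name the builds hg38 and GRCm38. The spans of the 8 factors equal those of GENCODE 29. Counts of 1 to 10 were even in 76.7% to 78.7% of cases, and whether the mates of a pair were counted one by one is not stated (if so, counting limits are too narrow).

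Counts were filtered with filterByExpr, scaled by TMM and tested with glmQLFit and glmQLFTest in edgeR 4.0.16 (R 4.3.3), with Benjamini-Hochberg adjustment over 20776 genes, and called at 0.05. Alternatives used limma 3.58.1, DESeq2 1.42.0, other filters, a replicate block, single omissions and halved counts, the last chosen after seeing the data. The fit was also run on simulated counts with far fewer changed genes than were called here, and the outcome is not reported. Shares were tested by exact permutation in scipy 1.17.1. The genes named were the 8 factors, the target, neighbours within 5 kb, up to 4 genes per list with the smallest adjusted p and no overlap, and the 3 genes most like each of 2 factors, apart from genes stated in the text to be named after their values were seen. The factors and lists were chosen with earlier results of these data known. Some genes that this rule names are not reported here.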

Additional observations from a re-analysis of the deposited data

How the results depend on the processing

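With no fold change threshold, 5 of the 8 factors and 10305 genes were called, against 2 factors and 1758 genes with it. limma with the fold threshold called 0 factors and 348 genes on log2(RPKM + 1), 0 and 345 without a filter on low values, and 1 and 909 on log2(RPKM + 0.1). GATA6 was under the mean RPKM of 0.5 that the filtered limma fits required. On log2(RPKM + 1) with the filter, KLF5 was at −0.97 (limma, adjusted p = 2.28e-05), short of the fold threshold of 1. The FOXA1 share fell by 8.35 points when taken from CPM, which is not divided by exon length. The cause of the differences between the fits was not tested. Single omissions gave 1714 to 1934 genes called, 2 factors each time, FOXA1 share differences of −7.08 to −6.46 points and CEBPA share differences of −3.98 to −3.40 points. Calls in the lists ran from 14 to 16 for other lineage factors, 10 to 13 for family members, 4 to 6 for lung, 10 to 14 for liver-type and 6 to 7 for gastric and intestinal genes. Halved counts gave 1446 genes and 2 factors.

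Replicate numbers did not pair the samples (residual r of −0.0166, 0.0506 and 0.00379), and with the replicate block 1741 genes and 2 factors were called. FOXA2 passed with the block (adjusted p = 0.0371), and no other factor's call changed. CEBPA had an adjusted p of 0.0751 by limma on log2(RPKM + 1) without a filter. FOXA3, which no setting called, turned positive without some libraries (highest 0.099). NKX2-1 had too few counts at this depth to enter the main test.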
